A study of Danio rerio with 18 samples.

Results

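The genes of DNA replication form a set of 43 listed genes, and 41 of them were measured among the 19247 zebrafish genes that had a microarray row with a single gene symbol. Members were found by their current or former symbol, and for the 4 genes with several rows (orc2, pold2, pole2 and rfc2) the row with the highest mean over the 18 arrays was used. The gene mcm2 had no row under a single symbol, and mcm5 had only a row shared with hmox1a, so neither is described. The listed name rrm2 is a former name of rrm2l and of rrm2b, and rrm2l was counted as the member. Cells came from embryos of the AB strain that carried the reporters Runx1+23:GFP and kdrl:DsRed2 and were dissociated at 3 dpf (days post fertilization). Pools of embryos had been treated from 2 dpf with 75 µM Lycorine, a plant alkaloid known to inhibit protein synthesis, in 1% DMSO, or with 1% DMSO alone. From each treatment 3 fractions were sorted, called Runx+ (GFP under a Runx1 enhancer, labelled HSPC, hematopoietic stem and progenitor cells), kdrl+ (DsRed2 under the kdrl promoter, labelled endothelial) and negative (neither colour, all other cell types). Each of the 6 groups had 3 arrays, so that number limits the precision. All values are log2 intensities of amplified RNA and all differences are log2 differences.

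Replication of the genome starts at origins, where the origin recognition complex (Orc1 to Orc6), Cdc6 and Cdt1 load the ring-shaped Mcm helicase in G1. In S phase, Cdc45 and the GINS complex join the ring and turn it into the active helicase. DNA polymerase alpha then primes each strand, polymerases epsilon and delta extend the leading and lagging strands, PCNA clamps the polymerases after loading by replication factor C, and RPA covers exposed single strands. Fen1 and Lig1 trim and join the Okazaki fragments of the lagging strand, while ribonucleotide reductase, thymidylate synthase, thymidine kinase and dUTPase supply the nucleotides. Transcripts of many of these genes are known to be made mainly in cycling cells under E2F factors.

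The sorts were checked by their marker genes. The reporter's own gene kdrl stood at 10.33 ± 0.67 (SD, n = 3) in DMSO kdrl+ arrays, against 7.08 ± 0.43 in Runx+ and 6.61 ± 0.36 in negative arrays. The integrin gene itga2b, a mark of HSPC and thrombocytes, stood at 6.68 ± 0.67 in DMSO Runx+, 5.43 ± 0.37 in kdrl+ and 4.50 ± 0.06 in negative arrays. It was not called for Runx+ against negative (limma adjusted p = 0.0774) or kdrl+ cells (limma adjusted p = 0.0529). In Lycorine its Runx+ level differed by 1.09 ± 0.39 from negative and 0.41 ± 0.39 from kdrl+ cells, neither called. The gene runx1 was at 5.25 ± 0.18, 5.82 ± 0.24 and 5.01 ± 0.31 in DMSO Runx+, kdrl+ and negative arrays. Averaged over 9 HSPC and blood markers, the level relative to each gene's mean ran from -0.99 to 0.39 in DMSO Runx+ arrays and from -0.69 to -0.41 in negative arrays, so these ranges overlapped, whereas kdrl+ arrays lay between 0.69 and 1.64. In Lycorine the ranges also overlapped, with -0.79 to -0.45 in Runx+ and -0.74 to -0.58 in negative arrays. Lycorine kdrl+ arrays lay between 0.72 and 1.08. For the 41 replication genes, spread was wider in DMSO than in Lycorine kdrl+ arrays and differed less in the other sorts. The root mean square SD of the 41 replication genes within a group was 0.29 (negative), 0.35 (Runx+) and 0.58 (kdrl+) in DMSO, and 0.26, 0.31 and 0.24 in Lycorine. By median SD the negative arrays went the other way, with 0.23 in DMSO and 0.25 in Lycorine. Over all genes the root mean square SD was wider in DMSO in every sort. It was 0.44 (negative), 0.54 (Runx+) and 0.50 (kdrl+) in DMSO, and 0.26, 0.33 and 0.27 in Lycorine. Tests used limma with 1 variance per gene for all groups, so the wider spread of the DMSO arrays was not modelled on its own.

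Averaged over the 41 genes, replication transcripts were highest in kdrl+ cells and lowest in DMSO Runx+ cells. The average deviation from each gene's mean was 0.56, -0.29 and 0.26 in DMSO kdrl+ replicates 1, 2 and 3, and 0.31, 0.18 and 0.13 in Lycorine kdrl+. It was -0.17, -0.37 and -0.39 in DMSO Runx+, and 0.21, -0.10 and -0.25 in Lycorine Runx+. Negative arrays were at 0.03, -0.23 and 0.06 in DMSO and 0.23, -0.18 and 0.01 in Lycorine. The 3 DMSO Runx+ arrays all lay below 0, but DMSO kdrl+ replicate 2 lay among them, and the other DMSO kdrl+ arrays lay above every Runx+ array of either treatment. The DMSO Runx+ mean was the lowest of the 6 group means for 32 of 41 members (78.0%), against 14.5% of all genes. The highest mean was that of DMSO kdrl+ for 16 members (39.0%, all genes 19.3%) and of Lycorine kdrl+ for 17 (41.5%, all genes 17.7%). In such sorted bulk samples, fewer cycling cells and less of a transcript per cell cannot be told apart.

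**Figure D1:**
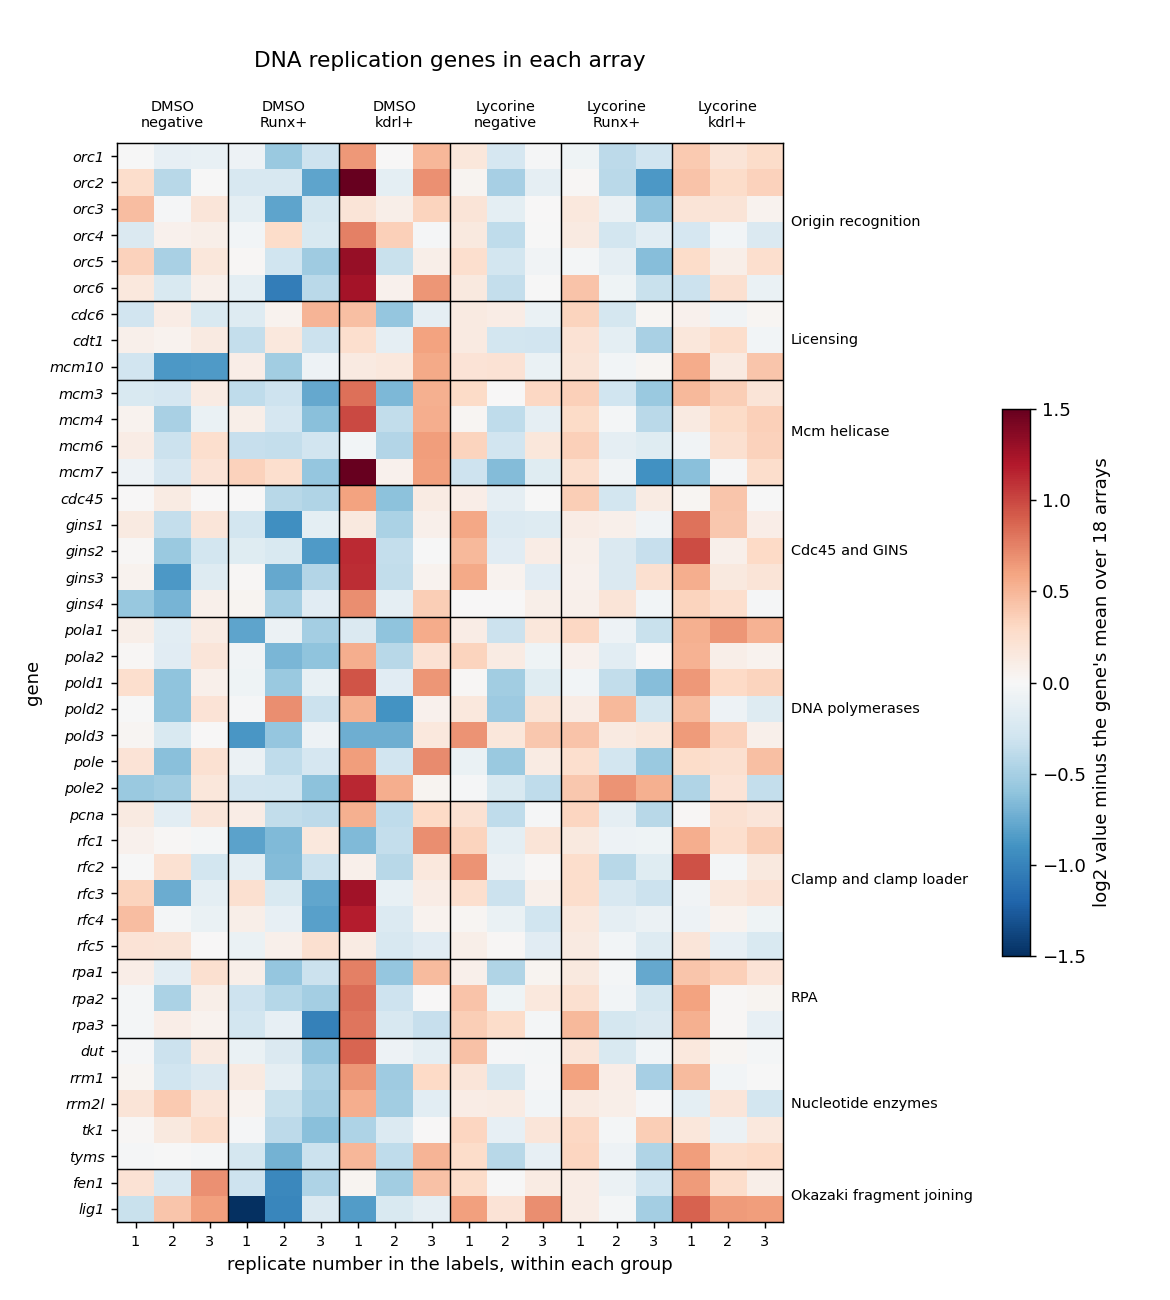
Each row is a replication gene, grouped by role, and each column an array, with the replicate number of the labels below and the group above. Colour gives the log2 value minus the gene's mean over 18 arrays, from -1.5 (blue) to 1.5 (red). DMSO kdrl+ replicate 1 is the highest array for 24 of 41 genes.

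Single arrays differed widely within the DMSO kdrl+ sort. DMSO kdrl+ replicate 1 was the highest of the 18 arrays for 24 members, while DMSO kdrl+ replicate 2 was the highest for 0 and the lowest for 7. Replicate 1 also had the highest erythroid marker level of the DMSO kdrl+ arrays (1.35, against 0.24 and 0.12, over 7 of 7 genes measured). DMSO negative replicate 1 had a higher erythroid level (1.81), with a replication average of 0.03. Of the DMSO kdrl+ arrays, replicate 2 had the highest level of liver, pancreas and gut markers (2.05, against -0.49 and -0.87, over 4 of 8 genes measured), as did the replicates numbered 2 of the other DMSO sorts (2.33 in negative and 1.53 in Runx+ cells). The part of these cells in the results was not tested, and values without each array are given below. The average deviation of 35 mitosis genes was -0.29, -0.58 and -0.39 in DMSO Runx+ and 0.17, -0.49 and 0.41 in DMSO kdrl+ arrays, where replicate 3 rather than replicate 1 was the highest.

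**Figure D2:**
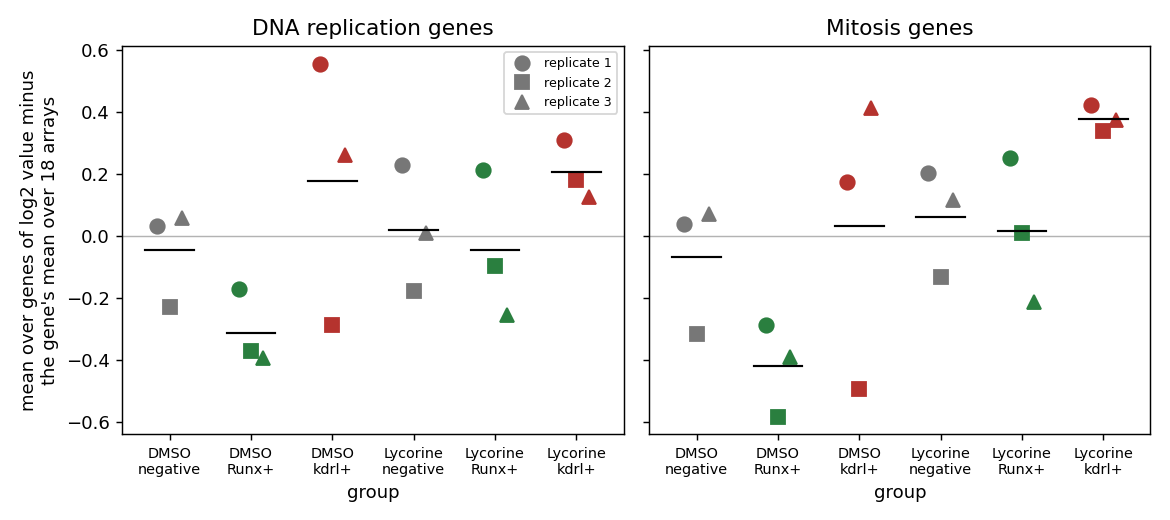
Points are arrays (circle, square and triangle for replicates 1, 2 and 3) and bars are group means of the average log2 deviation over 41 replication genes (left) or 35 mitosis genes (right). The 3 DMSO Runx+ arrays lie below 0 in both panels, and the DMSO kdrl+ arrays run from -0.29 to 0.56 for replication genes.

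Runx+ cells were set against kdrl+ cells in DMSO, which compares the blood enhancer reporter with the endothelial reporter. Transcripts of 3 of the 6 origin recognition genes, orc1, orc2 and orc6, were lower in Runx+ cells, as was that of the polymerase epsilon gene pole2. These 4 of 41 members were called lower and 0 higher, at an adjusted p under 0.05, against 4.1% of all genes called lower and 4.33% called higher (8.43% in either direction). The median over the 41 members was -0.52, against 0.02 over all genes, and 38 members had a negative difference while 52.0% of all genes had a positive one. Members varied together across the 18 arrays (median pairwise r = 0.47). They are therefore not independent observations, here or in the later counts of signs. At an unadjusted p under 0.05 there were 12 members, all lower, against 21.9% of all genes. The arrays did not overlap for 7 members, all lower in Runx+ cells (mcm10, orc1, orc2, orc3, orc6, pole2 and rpa2), against 8.01% of all genes wholly lower and 8.27% wholly higher.

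The smallest origin recognition subunit, orc6, read 5.37, 4.47 and 5.11 in DMSO Runx+ replicates 1 to 3 and 6.76, 5.58 and 6.17 in kdrl+ replicates. Every Runx+ array lay below every kdrl+ array, with a difference of -1.19 ± 0.30 (SE, limma adjusted p = 0.0196). For orc2, a core subunit of the complex, Runx+ arrays read 7.22, 7.22 and 6.67 and kdrl+ arrays 9.12, 7.30 and 8.14. The groups did not overlap, though kdrl+ replicate 2 lay just above the Runx+ arrays, and the difference was -1.15 ± 0.35 (limma adjusted p = 0.0492). The gene orc1, whose product binds ATP and is degraded in S phase in mammals, read 5.82, 5.33 and 5.58 in Runx+ and 6.55, 5.90 and 6.40 in kdrl+ arrays, again without overlap (-0.70 ± 0.20, limma adjusted p = 0.0391). The accessory polymerase epsilon subunit gene pole2 read 5.68, 5.67 and 5.35 against 7.10, 6.51 and 6.01 (-0.97 ± 0.27, limma adjusted p = 0.0330). Of the other origin recognition genes, orc3 was at -0.60 ± 0.22 and orc5 and orc4 at -0.63 and -0.36, none of them called.

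**Figure D3:**
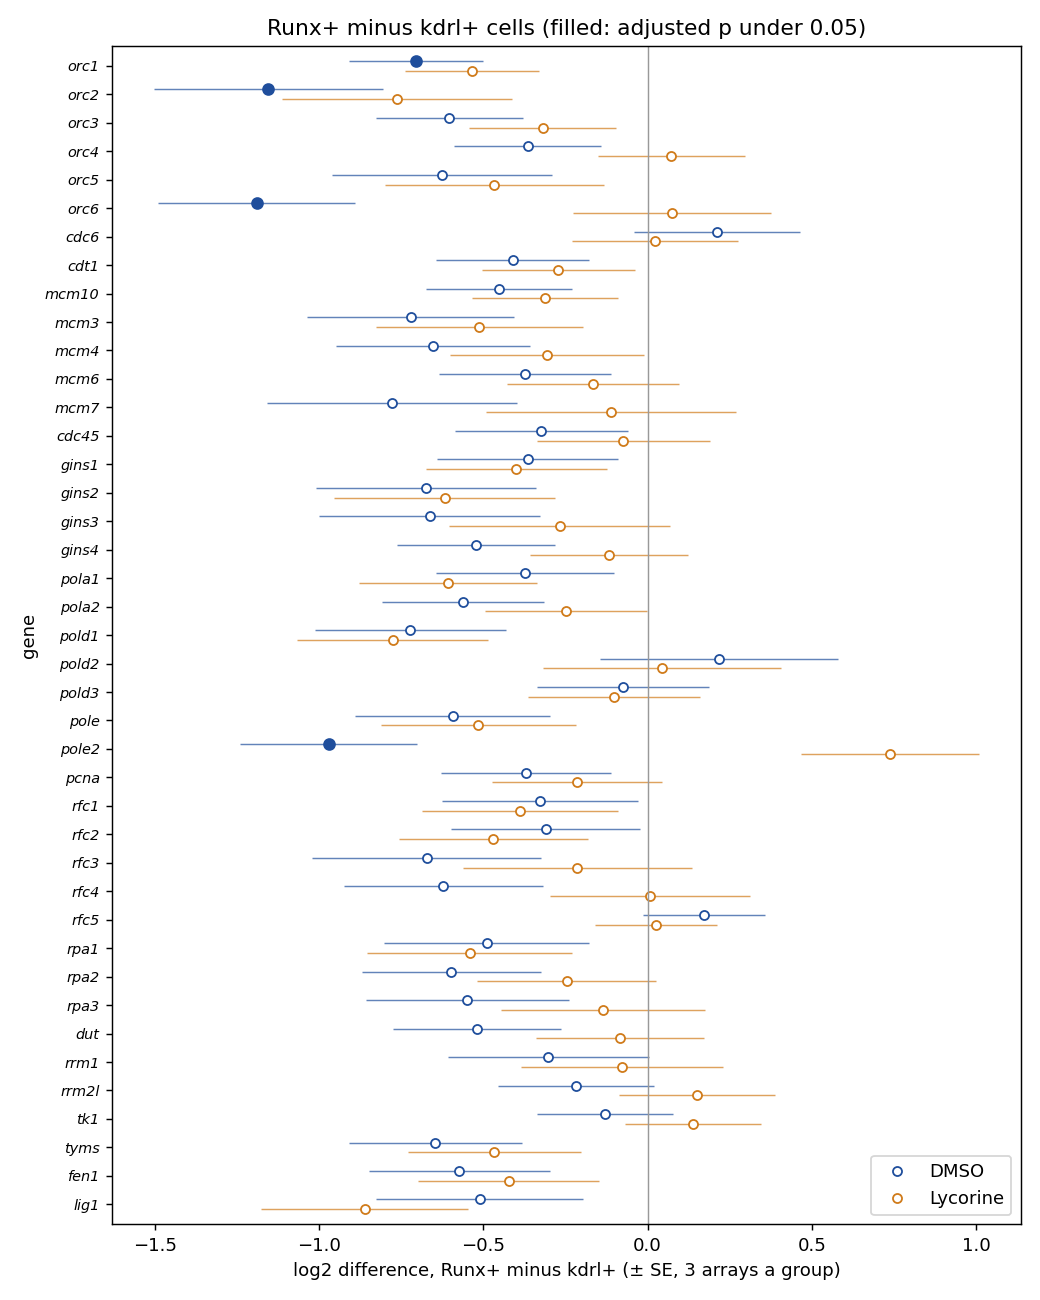
For each replication gene the log2 difference of Runx+ minus kdrl+ cells is plotted with its SE (3 arrays a group), in DMSO (blue) and in Lycorine (orange). Filled circles passed limma at an adjusted p under 0.05: orc1, orc2, orc6 and pole2 in DMSO, and none in Lycorine.

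Other roles had medians of the same sign in this comparison. The Mcm helicase genes (mcm3, mcm4, mcm6, mcm7) had a median of -0.69 and ranged from -0.78 to -0.37, and 0 of 4 were called. Cdc45 and GINS genes had a median of -0.52, polymerase genes -0.56, RPA genes -0.55, the clamp and its loader -0.35 and nucleotide enzymes -0.30. The licensing gene cdc6, the polymerase delta subunit gene pold2 and the clamp loader gene rfc5 had differences above 0, at 0.21, 0.22 and 0.17, and were not called. The clamp gene pcna read 10.89, 10.41 and 10.39 in Runx+ and 11.31, 10.40 and 11.09 in kdrl+ arrays, which overlapped.

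The calls between Runx+ and kdrl+ cells in DMSO depended on the arrays and on the estimate of spread. The number called was 0, 8 and 1 without DMSO kdrl+ replicates 1, 2 and 3, and 3, 0 and 1 without DMSO Runx+ replicates 1, 2 and 3, and the median over members ran from -0.71 without kdrl+ replicate 2 to -0.27 without kdrl+ replicate 1. Over all genes, 708 to 1916 were called with single arrays left out, against 1623 with all arrays. Without all 6 arrays numbered 2 only orc2 was called, and a fit to the 6 arrays of this comparison called 0 members, with adjusted p = 0.21 for orc6. Marker genes of other cells also differed in this comparison, with 6 of 6 neural, 2 of 5 skeletal muscle and 2 of 6 epidermis markers called higher in Runx+ cells and 6 of 9 HSPC and blood markers called lower. Among 6 neural and retinal progenitor markers, sox2 was called higher (1.31) and notch1a lower (-0.94). No mesenchyme marker was called. The average neural level, relative to each gene's mean, ran from -0.41 to 0.41 in Runx+ and from -2.37 to -0.88 in kdrl+ arrays, muscle from 0.72 to 1.504 and from -0.83 to 0.92, and epidermis from 0.09 to 1.35 and from -1.22 to 0.10, and their part in the result was not tested. With the replicate number as a block 5 genes were called, pold1 being added (-0.72 ± 0.21, limma adjusted p = 0.0414).

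Between kdrl+ and negative cells in DMSO, 2 of 41 members were called higher, mcm10 and pole2, and 0 lower. Of all genes 4.49% were called higher and 6.02% lower (10.5% in either direction), so 42.8% of the calls were higher, a share that was 58.0% after median centring of the arrays. The members' median was 0.23, against -0.05 over all genes, and 29 had a positive difference. At an unadjusted p under 0.05 there were 7 members, all higher, against 23.3% of all genes in either direction. The arrays of the sorts did not overlap for 2 members higher and 1 lower in kdrl+ cells, against 8.83% and 11.7% of all genes. The gene mcm10, which acts when the loaded helicase is switched on, read 5.40, 4.83 and 4.84 in negative and 5.83, 5.85 and 6.26 in kdrl+ arrays. The groups did not overlap, and the difference was 0.96 ± 0.22 (limma adjusted p = 0.0102). For pole2, negative arrays read 5.41, 5.45 and 6.13, so that negative replicate 3 lay above the lowest kdrl+ array (0.88 ± 0.27, limma adjusted p = 0.0471). The GINS gene gins4 followed with 0.71 ± 0.24 (limma adjusted p = 0.0718).

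The mcm10 call between kdrl+ and negative cells in DMSO was lost without DMSO negative replicate 3 (adjusted p = 0.0524), without DMSO kdrl+ replicate 3 (adjusted p = 0.0553), without all 6 arrays numbered 2 (adjusted p = 0.0704) and in a fit to these 6 arrays alone (adjusted p = 0.102). With array weights the mcm10 call was lost as well (limma adjusted p = 0.0747). The pole2 call was lost with the replicate block (adjusted p = 0.0517) and without any one of DMSO negative replicate 1 (0.164) or 2 (0.123) or DMSO kdrl+ replicate 1 (0.195) or 2 (0.0775). It was also lost with array weights (0.0876), in a fit to these 6 arrays alone (0.218) and without all 6 arrays numbered 2 (0.254). The count was 6 without DMSO kdrl+ replicate 2, and the members' median was 0.44 then but -0.0005 without kdrl+ replicate 1. Over all genes, 1091 to 2213 were called with single arrays left out, against 2023 with all arrays. Markers of other cells moved with this sort. Of the HSPC and blood markers 6 of 9 were called higher in kdrl+ cells, among them coro1a (3.04), lcp1 (2.95) and ikzf1 (2.64), and 6 of 6 neural markers were called lower, with levels of -2.37 to -0.88 in kdrl+ and 0.42 to 1.21 in negative arrays. Their part in the result was not tested.

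Between Runx+ and negative cells in DMSO, 0 of 41 members were called by limma, against 0.0052% of all genes, and 6 members had an unadjusted p under 0.05, 5 of them lower, against 12.5% of all genes in either direction. The members' median was -0.29, against -0.02 over all genes, and 34 had a negative difference. The differences furthest below 0 were those of the Okazaki fragment genes. The ligase gene lig1 read 5.36, 5.91 and 6.67 in Runx+ and 6.55, 7.30 and 7.50 in negative arrays, which overlapped (-1.14 ± 0.32, limma adjusted p = 0.169). The flap nuclease gene fen1 read 7.75, 7.10 and 7.61 against 8.28, 7.82 and 8.76, without overlap (-0.80 ± 0.27, limma adjusted p = 0.244). In all, 7 members lay wholly lower in Runx+ arrays and 0 wholly higher, against 6.14% and 4.77% of all genes, and they include the nucleotide genes tk1, rrm2l and tyms. This comparison uses the same 3 Runx+ arrays as that with kdrl+ cells, so the results are not independent.

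**Figure D4:**
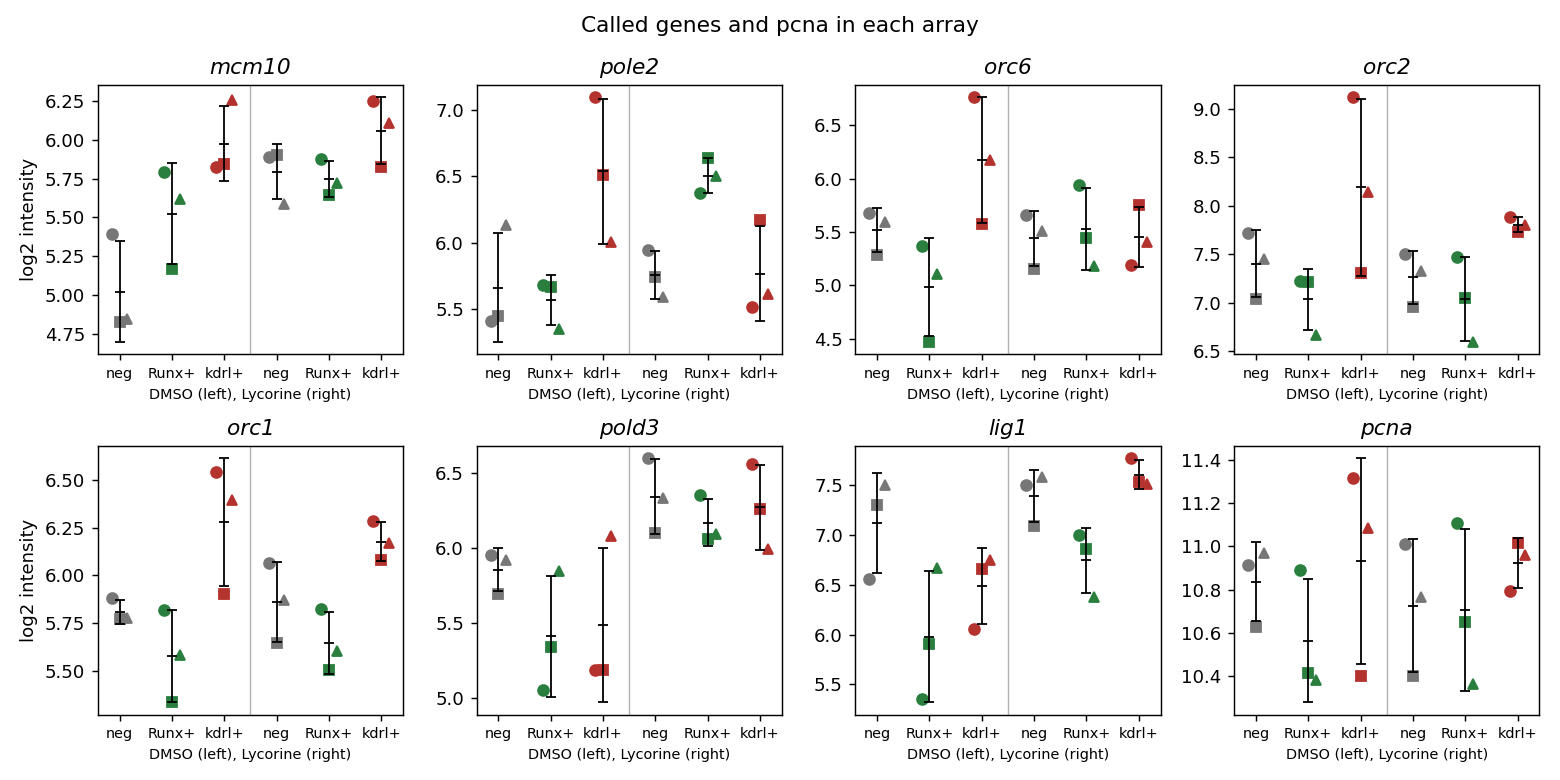
Log2 intensity of the 7 called genes and of pcna in each array, with circle, square and triangle for replicates 1, 2 and 3 and the group mean ± SD in black. In Lycorine, pold3 lies between 5.99 and 6.60 in all sorts, and pole2 is highest in Runx+ cells, unlike in DMSO.

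Under Lycorine the same sort comparisons use different arrays. Between Runx+ and kdrl+ cells, 0 of 41 members were called in limma, against 12.8% of all genes (5.64% higher, 7.12% lower), with 6 members at an unadjusted p under 0.05 (26.7% of all genes). Of the markers of other cells 5 of 6 neural, 4 of 5 muscle and 4 of 6 epidermis genes were called higher in Runx+ cells and 6 of 9 HSPC and blood genes lower. Of 6 progenitor markers sox2 (1.23) and sox19a (1.55) were called higher, while notch1a was at -0.55 and not called. Of 5 mesenchyme markers sparc (0.80) and col1a2 (1.02) were called higher, while pdgfra was at -0.11 and not called. Of the 7 erythroid markers hbbe2 was called lower (-1.28, limma adjusted p = 0.0311). The part of these cells was not tested. The members' median was -0.25, against 0.06 over all genes. A negative difference in both treatments was found for 32 of 41 members (78.0%), against 31.7% of all genes, though members that vary together are not independent observations. For 9 members (orc1, orc2, orc5, gins2, pola1, pold1, rfc1, rpa1 and lig1) all Runx+ arrays lay below all kdrl+ arrays, and for 1, pole2, above, against 18.1% and 22.2% of all genes. The genes called in DMSO differed in how they stood here. For orc1, Runx+ arrays read 5.82, 5.50 and 5.60 and kdrl+ arrays 6.29, 6.08 and 6.17 (-0.53 ± 0.20, limma adjusted p = 0.0944), and orc2 was at -0.76 ± 0.35 (limma adjusted p = 0.169). By contrast orc6 was at 0.07 ± 0.30, and pole2 had the opposite sign, 0.74 ± 0.27 (limma adjusted p = 0.0829).

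With only the 6 Lycorine arrays compared in the fit, which have the smaller spread, 5 members were called lower and 1 higher in the Runx+ sort. The lower ones were lig1 (adjusted p = 0.011), pold1 (adjusted p = 0.0183), orc2 (adjusted p = 0.0301), pola1 (adjusted p = 0.047) and orc1 (adjusted p = 0.0471), and the higher one was pole2 (adjusted p = 0.0257), all in limma. The share of all genes called in this fit is not given here, so these calls are not set against it. Over all genes, calls for these sorts ran from 560 to 6194 over the settings other than single arrays left out, against 2455. The gene pold1 encodes the catalytic subunit of polymerase delta and pola1 that of polymerase alpha. In pola1, kdrl+ arrays read 7.29, 7.43 and 7.29, above all Runx+ (7.07, 6.69, 6.43) and negative arrays (6.88, 6.44, 6.94). In pold1, they read 7.36, 7.004 and 7.04, against 6.66, 6.34 and 6.07 in Runx+ and 6.72, 6.19 and 6.53 in negative arrays.

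Between kdrl+ and negative cells in Lycorine 0 of 41 members were called in limma, against 12.9% of all genes (6.56% higher, 6.39% lower), with 2 at an unadjusted p under 0.05, against 23.6% of all genes. The median was 0.16, against -0.03 over all genes, and 7 members lay wholly higher and 0 wholly lower in kdrl+ arrays, against 17.7% and 21.3% of all genes. With only those 6 arrays in the fit pold1, pola1 and orc2 were called higher (adjusted p = 0.0251, adjusted p = 0.0308 and adjusted p = 0.0438). The share of all genes called in that fit is not given here, so these calls are not set against it. Over all genes, calls for these sorts numbered 2492 in the fit of all 18 arrays. They ran from 786 to 5880 over the settings other than single arrays left out. Marker levels of other cells also differed between these sorts. The average neural level ran from -1.23 to -0.19 in kdrl+ and from 0.97 to 1.16 in negative arrays. Mesenchyme ran from -1.06 to -0.69 and from 0.07 to 0.95, and progenitor markers from -0.87 to 0.04 and from 0.41 to 0.80. The part of these cells was not tested here. Between Runx+ and negative cells in Lycorine 0 members were called, against 0.0104% of all genes, 1 had an unadjusted p under 0.05 (pole2, higher), against 3.46% of all genes, and the median was -0.05, against 0.01 over all genes. The arrays did not overlap for 1 member higher (pole2) and 1 lower (lig1) in Runx+ cells, against 7.49% and 5.94% of all genes.

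Averaged over the 3 sorts, the transcripts of pold3 and lig1 were higher with Lycorine. These 2 of 41 members were called higher and 0 lower, against 2.29% and 2.81% of all genes (5.1% in either direction). The fit took the arrays of the 3 sorts as independent. Over all genes, same-numbered Runx+ and kdrl+ arrays deviated together in DMSO (correlations of 0.42, 0.33 and 0.36). In Lycorine they did not (0.02, -0.01 and -0.23). Where sorts came from 1 pool, the SE and p-value of the average may therefore be too small. Of the calls over all genes 44.9% were higher, 56.9% after median centring and 34.3% after cyclic loess. The members' median was 0.10, against -0.07 over all genes, and 29 members had a positive difference, against 40.4% of all genes. At an unadjusted p under 0.05 there were 7 members, 6 higher and 1 lower, against 24.8% of all genes. After cyclic loess the members' median was 0.04, against -0.08 over all genes, and 23 members had a positive difference. A positive Lycorine effect in each of the 3 sorts was found for 14 members (34.1%, all genes 19.2%) and a negative one for 3, mcm7, orc4 and pold1 (7.32%, all genes 31.7%). Markers of other cells moved in the same average, with 3 of 5 skeletal muscle markers called lower (list median -0.85), 2 of 6 neural markers higher (list median 0.62), and coro1a of the 9 HSPC and blood markers (-0.87), hbbe2 of the 7 erythroid markers (-0.99) and ela2 of the 4 liver, pancreas and gut markers (-2.61) lower. The average muscle level ran from -0.83 to 1.504 in DMSO and from -1.37 to 0.88 in Lycorine arrays, and the part of these cells in the result was not tested.

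The gene pold3, which encodes an accessory subunit of polymerase delta, read 5.95, 5.69 and 5.92 in DMSO negative, 5.05, 5.34 and 5.85 in DMSO Runx+, and 5.19, 5.19 and 6.08 in DMSO kdrl+ arrays. With Lycorine it read 6.60, 6.10 and 6.33 in negative, 6.35, 6.06 and 6.10 in Runx+, and 6.56, 6.26 and 5.99 in kdrl+ arrays. Lycorine arrays lay above all DMSO arrays of their sort in negative and Runx+ cells, while DMSO kdrl+ replicate 3 lay among the Lycorine values. The effect was 0.49 ± 0.26 in negative, 0.76 ± 0.26 in Runx+ and 0.79 ± 0.26 in kdrl+ cells, and 0.68 ± 0.15 on average (limma adjusted p = 0.0211). Leaving out any one of the 18 arrays gave 0.62 to 0.78 and left the gene called. Without all 6 arrays numbered 2 it was 0.65 with adjusted p = 0.207, a setting in which 15 genes in all were called.

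The gene lig1, whose ligase seals Okazaki fragments, read 6.55, 7.30 and 7.50 in DMSO negative and 7.50, 7.09 and 7.58 in Lycorine negative arrays, which overlapped. In Runx+ cells it read 5.36, 5.91 and 6.67 in DMSO and 6.996, 6.86 and 6.38 in Lycorine, also overlapping. In kdrl+ cells it read 6.05, 6.66 and 6.75 in DMSO and 7.77, 7.53 and 7.51 in Lycorine, without overlap. The average effect was 0.72 ± 0.18 (limma adjusted p = 0.0332), with 0.27 ± 0.32, 0.77 ± 0.32 and 1.12 ± 0.32 in negative, Runx+ and kdrl+ cells. The call was lost, with adjusted p from 0.051 to 0.0746, without any one of 10 arrays: DMSO negative 1, DMSO Runx+ 2, DMSO kdrl+ 1, Lycorine negative 1 or 3, Lycorine Runx+ 1 or 2, and Lycorine kdrl+ 1, 2 or 3. It was also lost without all arrays numbered 2 (adjusted p = 0.209).

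**Figure D5:**
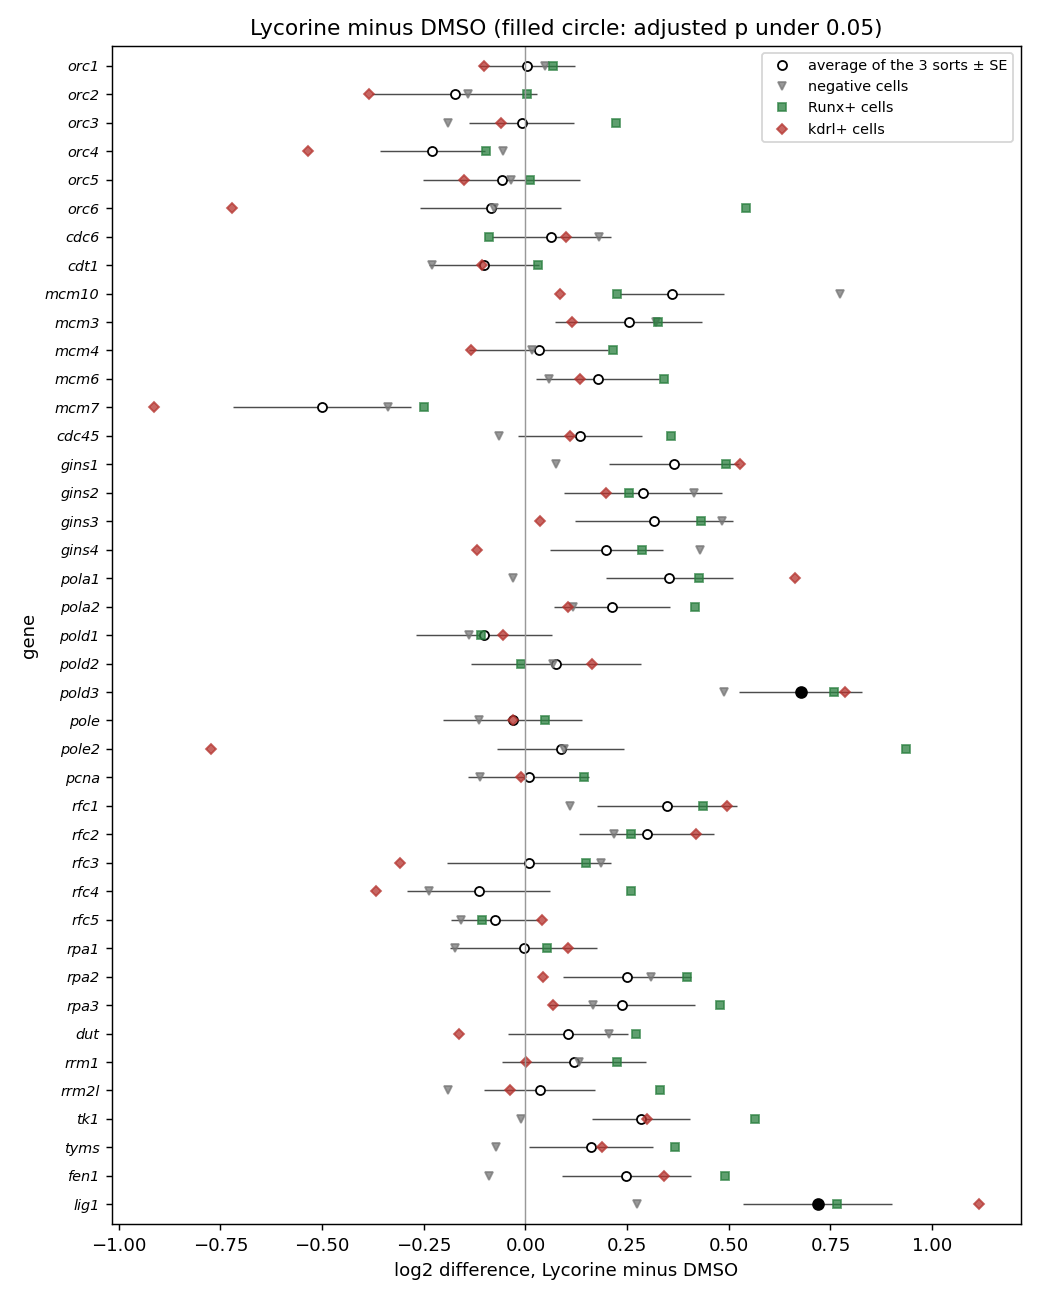
For each replication gene the circle is the Lycorine effect averaged over the 3 sorts with its SE, filled where limma's adjusted p was under 0.05, and the coloured marks are the effects in negative, Runx+ and kdrl+ cells. The filled genes are pold3 (0.68) and lig1 (0.72).

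Within single sorts no member passed limma. In negative cells 0 of 41 were called, as were 0.0% of all genes, and 1 member, mcm10, had an unadjusted p under 0.05, against 6.76% of all genes. It read 5.40, 4.83 and 4.84 in DMSO and 5.89, 5.91 and 5.59 in Lycorine, without overlap (0.77 ± 0.22, limma adjusted p = 0.505). In all 2 members lay wholly higher and 1 wholly lower, against 5.13% and 11.7% of all genes. In Runx+ cells 0 were called (all genes 0.0%), and 4 had an unadjusted p under 0.05, all higher (pole2, pold3, tk1 and lig1), against 13.5% of all genes in either direction. The median in Runx+ cells was 0.26, against -0.04 over all genes, 35 of 41 members had a positive difference, and 6 lay wholly higher and 0 wholly lower with Lycorine, against 6.67% and 8.62% of all genes. After cyclic loess the members' median in Runx+ cells was 0.16, against -0.11 over all genes, and 29 members had a positive difference. In kdrl+ cells 0 were called (all genes 0.052%, with 0.0156% higher and 0.0364% lower), and 7 had an unadjusted p under 0.05, 3 higher and 4 lower, against 11.4% of all genes. The arrays did not overlap for 1 member higher (lig1) and 1 lower (orc4), against 5.66% and 10.2% of all genes. The median there was 0.04, against -0.06 over all genes, and it was 0.22 without DMSO kdrl+ replicate 1 and -0.27 without DMSO kdrl+ replicate 2. Without DMSO kdrl+ replicate 3 pold3 was called (1.08, adjusted p = 0.035).

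The Lycorine effect did not pass the test of a difference between sorts for any member, in any of the 3 pairs, and 0.0% of all genes passed. Of the members 2 had an unadjusted p under 0.05 for kdrl+ against negative cells, 1 for Runx+ against negative cells and 2 for Runx+ against kdrl+ cells, against 2.66%, 1.67% and 4.43% of all genes. In the last, pole2 had an effect of 0.94 ± 0.27 in Runx+ and -0.77 ± 0.27 in kdrl+ cells, a difference of 1.71 ± 0.38 (limma adjusted p = 0.983). Its Lycorine arrays read 6.37, 6.64 and 6.50 in Runx+, above all kdrl+ (5.51, 6.17, 5.61) and negative arrays (5.94, 5.74, 5.59). In the other pole2 row these arrays overlapped, with 5.75 ± 0.13 in Lycorine Runx+ and 5.66 ± 0.13 in Lycorine kdrl+ arrays. Its DMSO means were 5.59 in Runx+ and 6.07 in kdrl+ cells, so its Lycorine effects were smaller but of the same signs. For orc6 the difference was 1.26 ± 0.42 (limma adjusted p = 0.983).

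The rows of a gene did not always show the same pattern. The orc2 rows both stood highest in DMSO kdrl+ arrays, at 8.19 ± 0.91 in the row used and 7.03 ± 0.45 in the other. In Lycorine they differed. The row used read 7.04 ± 0.43 in Runx+ and 7.80 ± 0.08 in kdrl+ arrays. The other row was not lower in Runx+ cells, with 6.46 ± 0.50 and 6.41 ± 0.08. The pold2 row used was level across treatments, with 6.09 ± 0.42 and 6.15 ± 0.41 in DMSO and Lycorine negative arrays. The other pold2 row read 5.39 ± 0.67 in DMSO negative, 5.27 ± 0.59 in Runx+ and 5.54 ± 1.34 in kdrl+ arrays, and 6.32 ± 0.39, 6.35 ± 0.21 and 6.40 ± 0.45 with Lycorine. With the mean of a gene's rows the pole2 calls were lost (adjusted p = 0.107 for kdrl+ against negative and adjusted p = 0.0767 for Runx+ against kdrl+ cells in DMSO), and orc2 was called for kdrl+ against negative cells in DMSO (0.90, adjusted p = 0.0472).

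Members chosen from several roles had the following group means. The licensing gene cdc6 had group means of 7.38 (DMSO negative), 7.64 (DMSO Runx+), 7.43 (DMSO kdrl+), 7.57, 7.55 and 7.53 (the same sorts in Lycorine), with SDs of 0.06 to 0.52. For cdt1, its partner in loading the helicase, the means in the same order were 5.69, 5.43, 5.84, 5.46, 5.46 and 5.73. The helicase activator gene cdc45 stood at 5.58, 5.25, 5.57, 5.51, 5.60 and 5.68. For each of these 3 genes the 6 means lay within 1 log2 unit, and no comparison was called. In the GINS gene gins2 the means were 6.35, 6.20, 6.88, 6.77, 6.46 and 7.07, and in the catalytic polymerase epsilon gene pole 6.07, 5.90, 6.49, 5.96, 5.94 and 6.46. In both the kdrl+ mean was the highest sort mean of its treatment, but DMSO kdrl+ replicate 2 (6.27 for gins2, 5.85 for pole) lay below DMSO Runx+ replicate 1 (6.44 and 6.04).

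The RPA gene rpa2, whose product coats single-stranded DNA, had means of 7.62, 7.33, 7.93, 7.93, 7.73 and 7.98, and the clamp loader gene rfc4 5.90, 5.51, 6.13, 5.67, 5.77 and 5.76. Thymidylate synthase, tyms, stood at 8.56, 8.14, 8.79, 8.49, 8.51 and 8.97. Thymidine kinase, tk1, stood at 8.57, 8.09, 8.22, 8.56, 8.65 and 8.51, and the reductase subunit gene rrm2l at 9.72, 9.20, 9.42, 9.53, 9.53 and 9.38. Among these nucleotide genes tyms had its highest means in kdrl+ cells, while rrm2l had them in negative DMSO cells and tk1 in Lycorine Runx+ cells. The gene rrm2b, which shares the former name and encodes the alternative small subunit, had means of 7.71, 7.72, 7.62, 7.71, 7.84 and 7.36.

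Across the 18 arrays the members varied together to different degrees. The correlation of a member with the average of the other 40 was over 0.5 for 29 of 41. It was highest for mcm3 (r = 0.92), rpa2 (0.91), tyms (0.91), pcna (0.89) and rpa1 (0.88), and lowest for rfc5 (0.05), cdc6 (0.19), tk1 (0.23) and lig1 (0.26). The points share groups and arrays, so these values only describe likeness. Of the genes called, orc2 and orc1 were close to the common pattern (0.85 both), and pold3 (0.31), pole2 (0.30) and lig1 (0.26) were not.

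Other genes of replication and its control were read from lists chosen with the members. Their counts of called genes are to be read against the shares of all genes given above, 4.1% called lower in Runx+ than kdrl+ cells and 4.49% higher in kdrl+ than negative cells, both in DMSO, and 2.29% higher with Lycorine on average. Of 36 other replication factors, 1 was called lower (all genes 4.1%) in the DMSO comparison of Runx+ with kdrl+ cells, wdhd1 (-0.75 ± 0.21, limma adjusted p = 0.0346), which links polymerase alpha to the helicase, and 0 higher, with a list median of -0.33. With Lycorine averaged over sorts 2 were called higher and 0 lower, the topoisomerase gene top2a (0.74 ± 0.15, limma adjusted p = 0.0143) and the licensing inhibitor geminin, gmnn (0.70 ± 0.18, limma adjusted p = 0.0366), with a list median of 0.27. Of 14 other nucleotide supply genes 1 was called higher with Lycorine, the deoxycytidine kinase gene dck (0.47 ± 0.13, limma adjusted p = 0.0473), and 0 in either direction in any sort comparison.

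Of 28 genes of E2F factors, cyclins and their kinases, 4 were called higher in DMSO kdrl+ cells, against negative cells, and 0 lower. They were the blood transcription factor gene myb (2.04 ± 0.37), the G1 kinase genes cdk4 (1.16 ± 0.23) and cdk6 (0.84 ± 0.26) and the cyclin gene ccnd3 (0.66 ± 0.21), with limma adjusted p from 0.00173 to 0.0499. With Lycorine averaged over sorts 2 were called higher, the E2F partner gene tfdp1b (0.86 ± 0.19, limma adjusted p = 0.0195) and the repressor gene e2f8 (0.57 ± 0.16, limma adjusted p = 0.0456). Of 35 mitosis genes 2 were called lower (all genes 4.1%) and 0 higher in DMSO Runx+ cells, against kdrl+ cells, the kinase gene aurka (-0.96 ± 0.23) and the securin gene pttg1 (-0.87 ± 0.26), with a list median of -0.48. With Lycorine averaged over sorts 2 mitosis genes were called higher, the checkpoint gene bub1bb (0.90 ± 0.22) and INCENP (0.59 ± 0.14), with limma adjusted p of 0.0273 and 0.0233 and a list median of 0.31. The Cdk inhibitor gene cdkn1a, a known target of p53, had DMSO means of 7.95 ± 0.70, 7.74 ± 0.93 and 7.46 ± 0.59 in negative, Runx+ and kdrl+ cells and Lycorine means of 7.19 ± 0.26, 7.13 ± 0.42 and 7.27 ± 0.29, and was not called in any comparison.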

How the data were processed

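The deposited table holds log2 intensities, which the authors made with oligo, RMA and limma per the submitters' processing notes with no versions or settings stated, so the log2 values were used as they stand. It has 65528 rows and 18 arrays, and array medians run from 4.87 to 5.12. Of the rows with 1 gene symbol (20806), 20323 were named through RefSeq identifiers and the rest by their current, former or array symbol. The highest row per gene was kept, giving 19247 genes. No filter on low values was used. All 18 arrays were fitted by 6 group means in limma 3.58.1 (R 4.3.3), 2-sided, with Benjamini-Hochberg adjustment over all genes within each of 13 contrasts at a threshold of 0.05. Tables and figures used Python 3.11.15, pandas 2.3.3 and matplotlib 3.10.9. The fit was tested on simulated data. The simulated arrays were independent, with the same spread in every group for each gene. They therefore do not test the wider spread of the DMSO arrays or deviations shared by samples with the same replicate number. Replicates are called biological in the labels, without saying how pools were made, so p-values measure the spread between these samples.

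Alternatives were the replicate block, only the arrays compared, array weights, median centring, cyclic loess, a filter on low genes, the mean of a gene's rows, each array left out, and all arrays numbered 2 left out. Same-numbered samples deviated together over all genes (every correlation over 0.1) for kdrl+ against negative cells in both treatments, Runx+ against kdrl+ cells in DMSO, and Lycorine against DMSO in negative cells. The labels number the replicates but do not state a shared pool. The members and lists were chosen with earlier results of these data known. In each comparison every called member was named. The set members mcm2 and mcm5 of the Mcm helicase are not described, and group values were given for set members of the other roles. Among these, cdc6, cdt1, cdc45, gins2, pole, rpa2, rfc4, rrm2 (as rrm2l), tyms, tk1 and lig1 have values for all 6 groups in the text. The set members pcna, orc1, pola1 and fen1 have values there for only some of the groups.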

Additional observations from a re-analysis of the deposited data

How the results depend on the processing

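The number of members called moved by more than 1.5 times in several settings. For kdrl+ against negative cells in DMSO (2 called) it was 1 with the replicate block, 0 with only the arrays compared, 0 with array weights, 4 with median centring, 1 among genes above the median level, 0 without all 6 arrays numbered 2, and 1 to 6 with single arrays left out. For Runx+ against kdrl+ cells in DMSO (4) it was 0 with only the arrays compared, 1 with array weights, 2 among genes above the median level, 1 without the arrays numbered 2, and 0 to 8 with single arrays left out. In Lycorine, kdrl+ against negative cells (0) gave 3 with only the arrays compared and 2 with array weights, and Runx+ against kdrl+ cells (0) gave 2 with the replicate block, where the numbers did not pair the samples, 6 with only the arrays compared, 5 with array weights and 2 with median centring. For the Lycorine effect in kdrl+ cells (0), single arrays left out gave 0 to 1, and for the average effect (2) 1 to 4, with 1 among genes above the median level and 0 without the arrays numbered 2. By gene, the replicate block ended the call of pole2 for kdrl+ against negative cells in DMSO (adjusted p = 0.0517), added pold1 for Runx+ against kdrl+ cells in DMSO (adjusted p = 0.0414), and added orc1 and pold1 for the same sorts in Lycorine (adjusted p = 0.0451 and adjusted p = 0.024). No called value changed sign in any of these settings. The filter on level left out orc1, orc6, mcm10 and pold3, so they were not tested there. Their means (5.89, 5.51, 5.69 and 5.92) were below the median gene mean of 5.94. The called members above it, orc2, pole2 and lig1, stayed called. The cause of the other changes was not tested.

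Over all genes, median centring moved the median of kdrl+ minus negative cells in DMSO from -0.05 to 0.09 and the share of calls that were higher from 42.8% to 58.0%. For the average Lycorine effect that share was 44.9%, 56.9% with median centring and 34.3% with cyclic loess. Calls over all genes for that effect ran from 15 without the arrays numbered 2 to 2536 with array weights, against 982. In Lycorine, single arrays left out aside, they ran from 786 to 5880 for kdrl+ against negative cells, against 2492. For Runx+ against kdrl+ cells in Lycorine they ran from 560 to 6194, against 2455. Members with a positive Lycorine effect in kdrl+ cells numbered 23 of 41, and 15 with cyclic loess.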
